A study of Zea mays with 18 samples.

Results

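The genes described here encode the maize enzymes that build and trim the starch polymer, namely starch synthases, a branching enzyme and a debranching enzyme. They were chosen by gene identifier as 6 of the 38300 genes measured: wx1 (GRMZM2G024993) and GBSSIIa (GRMZM2G008263), the granule-bound starch synthases; du1 (GRMZM2G141399) and su2 (GRMZM2G348551), soluble starch synthases; ae1 (GRMZM2G032628), a starch branching enzyme; and su1 (GRMZM2G138060), a debranching enzyme of the isoamylase type. The rule used no measured value, but the members were chosen with earlier results of these data known. A reference entry of a later B73 assembly named 5 of the 6, while su1 carries the name given with the rule.

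Starch is made inside plastids from ADP-glucose. Granule-bound synthases make the linear glucan amylose, soluble synthases extend the chains of amylopectin, branching enzymes open new branches, and debranching enzymes remove branches that would keep the polymer from crystallizing into a granule. Maize mutants in these genes have altered kernel starch: waxy (wx1) kernels lack amylose, amylose extender (ae1) kernels are rich in it, and sugary1 (su1) kernels hold soluble phytoglycogen, a highly branched glucan, in place of much of their starch. The mutants dull1 (du1) and sugary2 (su2) name the soluble synthases, and granule-bound synthases of type II are known in cereals from tissues other than the filling endosperm, such as leaf.

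All libraries came from the inbred line B73, grown in a greenhouse, with no transgene or treatment in any group. Tissue was isolated by laser capture in 6 groups of 3 libraries. The groups were the material labelled endosperm at 0 days after pollination (0 DAP), which before fertilization is the central cell, the endosperm on each of the days after self-pollination up to 4 DAP, and embryos of that last day. Each library pooled sections of several kernels from 1 ear, so p-values measure the spread between these pools. The series follows the endosperm through its first days, when it is a syncytium that becomes cellular, before grain filling.

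Levels are deposited normalised values of the unit CPM (read counts scaled to a common library size), and a read count could be recovered from each of them. Libraries held 7688120 (replicate 1 at 1 DAP) to 124078873 recovered reads (replicate 1 at 2 DAP), and replicate 1 of the embryo was also shallow, at 9572961. In every group, replicate 1 had the lowest mean correlation within the group (r = 0.926 to 0.966). Within each group, replicates 2 and 3 were closest to each other (0.966 to 0.988, and 0.984 at 3 DAP). Replicate 1 at 3 DAP correlated most with a library of 2 DAP (0.958) and reached 0.951 within its group. In no other library did the highest correlation lie outside its group. All 3 libraries of 3 DAP correlated with some library of another stage more highly (0.958 to 0.973) than on average within their group (0.950 to 0.967). Summed over 5 embryo regulators, the embryo libraries held 47.1 to 110.5 CPM and the other libraries 0.623 to 7.98 CPM. Of that list, wox2A did not separate the embryo (3.61 ± 2.16 CPM) from the 1 DAP endosperm (4.94 ± 3.10 CPM). The endosperm gene fie1, a Polycomb-group gene, averaged 0.242 CPM in the central cell and was highest at 2 DAP (119.6 CPM), with 82.1 CPM in the 4 DAP endosperm. Of the transfer-cell markers, BETL1 and MEG1 stood at 71.8 and 8.65 CPM in the 4 DAP endosperm and at 0 and 0.00825 CPM in the embryo. The transfer-cell regulator Mrp1 went against its label, at 35.7 CPM in the central cell and 0.0708 CPM in the 4 DAP endosperm (-5.08, adjusted p = 7.07e-08), with 0.830 CPM in the embryo.

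All 6 enzyme genes passed the filter on low values, at least 1 CPM in at least 3 libraries. Changes are differences in log2(CPM + 1), given with the standard error of the fit (limma, all 18 libraries, two-sided) and a p adjusted by the Benjamini-Hochberg method over the 31783 genes tested. A change was called at an adjusted p below 0.05. Comparisons that share a stage share its 3 libraries. RNA of the 3 and 4 DAP endosperm was quantified by a method that differed from that of the other groups. Where a comparison crosses this divide, the method cannot be told apart from stage or tissue. Over the 5 stages from 0 to 4 DAP, an F test called 5 of the 6, all but wx1, against 53.1% of all genes tested. Between 0 and 2 DAP, 4 of the 6 fell, GBSSIIa, su2, ae1 and su1, where 21.9% of all genes tested fell and 40.6% changed.

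Waxy (wx1) transcripts were scarce in every group. In replicates 1, 2 and 3 the level was 1.33, 1.08 and 0.853 CPM at 0 DAP, 0, 0.778 and 0.109 CPM at 1 DAP, and 0.573, 0.400 and 0.136 CPM at 2 DAP. It was 0, 1.11 and 1.05 CPM at 3 DAP, 0.211, 0.650 and 0.509 CPM in the 4 DAP endosperm, and 1.78, 0 and 0 CPM in the embryo. No library exceeded 96 reads, and 4 libraries had none; for the deepest and the shallowest of these 4, a count of 0 allows a level of up to 0.0371 CPM (embryo replicate 2) and 0.335 CPM (1 DAP replicate 1), taking 3 reads as the limit. The 0 DAP libraries lay above those of 1 and 2 DAP without overlap, but none of the changes between stages was called (1 against 0 DAP: -0.73 ± 0.35, adjusted p = 0.156; F test: adjusted p = 0.392). Without replicate 1 of every group the F test did call wx1 (adjusted p = 0.0483; range over 25 alternatives 0.0483 to 0.808). The embryo mean of 0.592 ± 1.03 CPM (SD, n = 3) rested on the 20 reads of 1 shallow library.

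GBSSIIa was highest in the embryo and passed through a trough in the endosperm. It measured 6.36, 8.68 and 13.7 CPM at 0 DAP, 4.68, 3.33 and 3.54 CPM at 1 DAP, and 0.573, 1.63 and 0.408 CPM at 2 DAP. The level was 2.28, 1.5 and 1.08 CPM at 3 DAP and 4.15, 6.46 and 2.72 CPM in the 4 DAP endosperm, against 30.4, 17.2 and 33.7 CPM in the embryo. Every embryo library lay above every other library, and the 2 DAP libraries all lay below those of 0, 1 and 4 DAP. From 0 to 2 DAP the mean fell 11-fold, from 9.57 ± 3.74 to 0.870 ± 0.661 CPM (log2 change -2.5 ± 0.34, adjusted p = 2.01e-05). By 4 DAP it had risen 5.11-fold above the 2 DAP mean, to 4.44 ± 1.89 CPM (1.54 ± 0.34, adjusted p = 0.00432), which is 46.4% of the 0 DAP mean.

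Dull1 (du1), the soluble synthase III, was the only member whose level at 2 DAP was not below that at 0 DAP. Its levels were 17.3, 12.4 and 16.2 CPM at 0 DAP, 22.5, 20.1 and 24.5 CPM at 1 DAP, and 18.1, 20.6 and 21.5 CPM at 2 DAP. They were 61.2, 23.5 and 26 CPM at 3 DAP, 154.8, 108.8 and 73.4 CPM in the 4 DAP endosperm, and 47.4, 49.8 and 36.2 CPM in the embryo. The 3 libraries of the 4 DAP endosperm were the highest of the 18, and replicate 1 at 3 DAP lay well above its group. The mean rose 7.34-fold between 0 and 4 DAP, from 15.3 ± 2.59 to 112.4 ± 40.8 CPM (2.75 ± 0.31, adjusted p = 2.91e-06). Between 0 and 2 DAP no change was called (0.38 ± 0.31, adjusted p = 0.362).

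Sugary2 (su2), the soluble synthase IIa, went through the deepest trough of the 6 relative to its start. It measured 4.58, 4.45 and 8.97 CPM at 0 DAP, 1.67, 1.82 and 3.76 CPM at 1 DAP, and 0.201, 0.557 and 0.284 CPM at 2 DAP. It then measured 3.88, 1.47 and 2.53 CPM at 3 DAP, 11.7, 9.88 and 7.52 CPM in the 4 DAP endosperm and 0.355, 3.97 and 1.49 CPM in the embryo. No other endosperm library was as low as the 3 of 2 DAP, and the embryo libraries all lay below those of the 4 DAP endosperm. The mean at 2 DAP was 5.78% of that at 0 DAP (-2.33 ± 0.40, adjusted p = 0.000175). From 2 to 4 DAP it rose 27.9-fold, from 0.347 ± 0.186 to 9.69 ± 2.08 CPM (2.98 ± 0.40, adjusted p = 5.55e-05). This fold is a ratio of mean CPM and rests on 21 to 39 reads per library at 2 DAP. The log2 change is on CPM + 1 and is smaller for that reason. The level at 4 DAP was not distinguishable from that at 0 DAP (0.65 ± 0.40, adjusted p = 0.217, 95% interval -0.19 to 1.49).

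The branching enzyme gene ae1, which encodes the endosperm form IIb, had its trough at 2 and 3 DAP. Its levels were 98.3, 73 and 69.2 CPM at 0 DAP, 43.6, 40.3 and 44.9 CPM at 1 DAP, and 15.5, 21.7 and 17.1 CPM at 2 DAP. At 3 DAP they were 15.7, 11.9 and 14.9 CPM, in the 4 DAP endosperm 67.9, 46.5 and 38.4 CPM, and in the embryo 66.4, 75.9 and 77.4 CPM. The groups of 0, 1 and 2 DAP did not overlap with each other, and neither did those of 3 and 4 DAP. The mean fell from 80.2 ± 15.8 CPM at 0 DAP to 43.0 ± 2.35 at 1 DAP and 18.1 ± 3.22 at 2 DAP, was 14.2 ± 2.01 at 3 DAP, and stood at 50.9 ± 15.3 CPM at 4 DAP, with the last 2 of these stages 3.59-fold apart (1.74 ± 0.22, adjusted p = 0.000119). The step from 2 to 3 DAP was not called (-0.32 ± 0.22, adjusted p = 0.629).

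The debranching enzyme gene su1 varied least among the 5 genes called by the F test. It measured 15.9, 13.0 and 11.6 CPM at 0 DAP, 5.80, 4.18 and 5.23 CPM at 1 DAP, and 4.72, 4.20 and 4.90 CPM at 2 DAP. It measured 4.56, 11.4 and 10.0 CPM at 3 DAP, 12, 13.3 and 9.22 CPM in the 4 DAP endosperm and 12.4, 7.31 and 11.1 CPM in the embryo. The 0 DAP libraries lay above those of 1 and 2 DAP, which overlapped with each other, and at 3 DAP replicate 1 sat among the 2 DAP values while the other replicates sat among those of 4 DAP. The highest group mean was 2.93 times the lowest. From 2 to 4 DAP the mean rose 2.5-fold, from 4.61 ± 0.366 to 11.5 ± 2.11 CPM (1.15 ± 0.28, adjusted p = 0.00844), and at 4 DAP no difference from 0 DAP was called (-0.22 ± 0.28, adjusted p = 0.586; 95% interval -0.81 to 0.38).

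**Figure D1:**
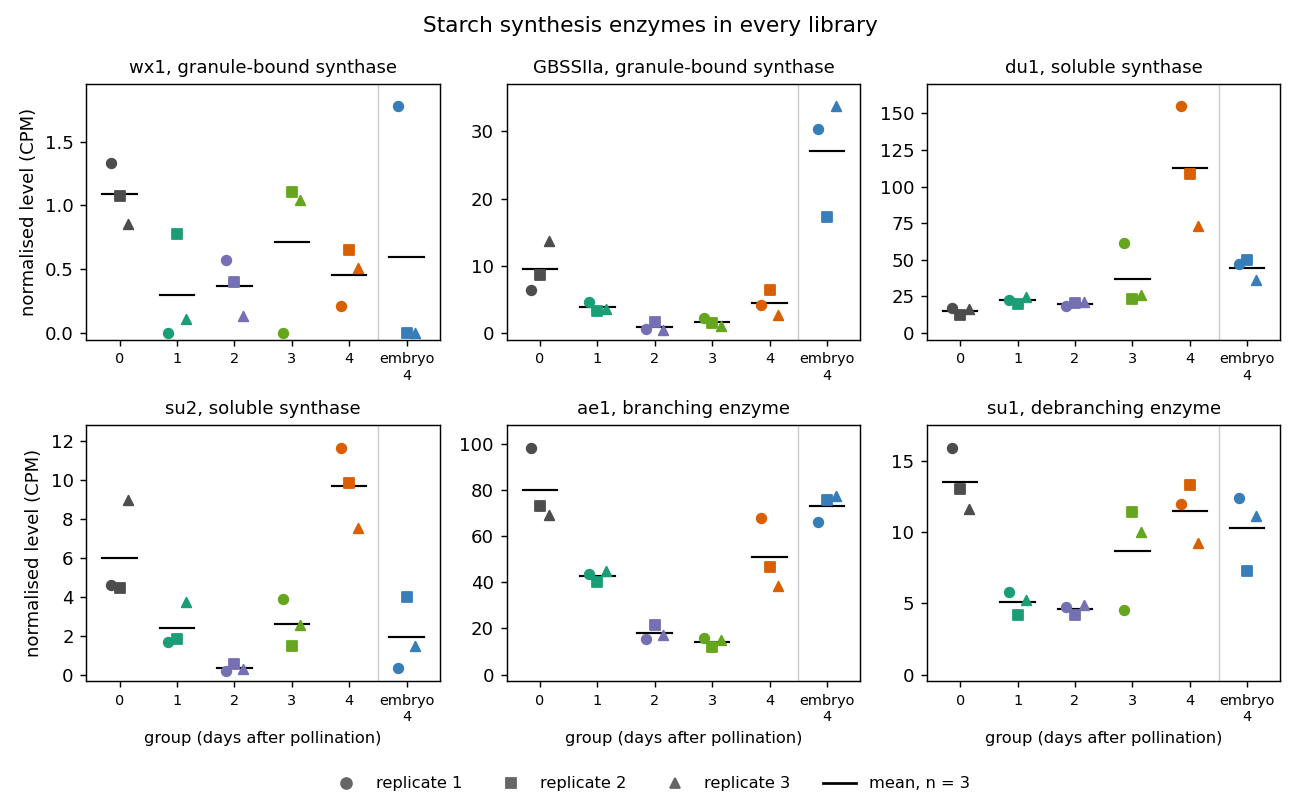
Level of each of the 6 starch enzyme genes in CPM, 1 panel per gene, against the group (0 to 4 DAP and the 4 DAP embryo). Points are the 3 libraries of a group and the bar is their mean; GBSSIIa, su2, ae1 and su1 dip at 1 to 3 DAP, du1 reaches 154.8 CPM at 4 DAP, and wx1 stays below 2 CPM throughout.

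Ranked by group mean, GBSSIIa ran from the embryo through 0, 4, 1 and 3 DAP to 2 DAP, and du1 from 4 DAP through the embryo, 3, 1 and 2 DAP to 0 DAP. For su2 the order was 4, 0, 3 and 1 DAP, then the embryo, then 2 DAP, and for ae1 it was 0 DAP, the embryo, 4, 1, 2 and 3 DAP. The order for su1 was 0 DAP, 4 DAP, the embryo, 3, 1 and 2 DAP, and for wx1 0 and 3 DAP, the embryo, 4, 2 and 1 DAP. Of the 30 steps between neighbours in these orders, 4 were called. GBSSIIa was called from the embryo to 0 DAP (limma, adjusted p = 0.0032) and from 0 to 4 DAP (0.0350). The other called steps were du1 from 4 DAP to the embryo (0.00656) and ae1 from 1 to 2 DAP (0.00112). These comparisons called 38.8%, 37.2%, 23.5% and 20.6% of all genes tested, in the same order. For the other neighbours in each order no difference was called beyond the spread between libraries. Neighbours were set by ranking the same means, which favours small gaps, so the low count of calls is partly built in. Without replicate 1 at 3 DAP the count of called steps was 7.

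The comparison of 1 DAP with 0 DAP asks what changes on the first day, from the central cell to the young endosperm. Of the 6 enzyme genes, 3 fell and 0 rose, where 12.6% of all genes tested fell, 10.3% rose and 22.9% changed in either direction. The genes that fell were ae1, from 80.2 to 43.0 CPM (-0.87 ± 0.22, adjusted p = 0.00937), su1, from 13.5 ± 2.21 to 5.07 ± 0.821 CPM (-1.26 ± 0.28, adjusted p = 0.0037), and GBSSIIa, from 9.57 to 3.85 ± 0.729 CPM (-1.08 ± 0.34, adjusted p = 0.0299). The median change was -0.95 over the 6, against -0.04 over all genes tested. For su2 the values were 6.0 ± 2.57 and 2.42 ± 1.16 CPM (-1.03 ± 0.40, adjusted p = 0.0731), and for du1 15.3 and 22.4 ± 2.22 CPM (0.53 ± 0.31, adjusted p = 0.255). In libraries pooled from captured sections, a change in the material captured and a change of RNA level within it cannot be told apart. Markers of the embryo sac moved in the same direction, es1, es2 and es4 which went from 86.7, 106 and 154 CPM to 6.36, 4.81 and 9.0 CPM. The sum over the whole list of 5 embryo-sac genes was 465 to 1170 CPM at 0 DAP against 118 to 190 CPM on the next day, and its part in the falls was not tested. The GBSSIIa call was lost in 8 of 16 alternatives (adjusted p 0.0206 to 0.134): with edgeR (0.0763), among others, and when replicate 2 (0.0637) or 3 (0.134) of 0 DAP, or 2 (0.0904) or 3 (0.0805) of 1 DAP, was left out. Without replicate 3 at 1 DAP, su2 was called (0.0495; range 0.0488 to 0.254).

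Between 1 and 2 DAP, GBSSIIa, ae1 and su2 fell. Of the 6 genes, 3 fell and 0 rose, where 10.6% of all genes tested fell, 9.95% rose and 20.6% changed in either direction. GBSSIIa fell from 3.85 to 0.870 CPM (-1.42 ± 0.34, adjusted p = 0.00699), su2 from 2.42 to 0.347 CPM (-1.30 ± 0.40, adjusted p = 0.0276) and ae1 from 43.0 to 18.1 CPM (-1.22 ± 0.22, adjusted p = 0.00112). The levels of su1 (5.07 and 4.61 CPM; -0.11 ± 0.28, adjusted p = 0.840) and du1 (22.4 and 20.1 ± 1.73 CPM; -0.15 ± 0.31, adjusted p = 0.795) were not distinguishable. The median over the 6 was -0.68, against 0.00 over all genes. The embryo-sac markers es1, es2 and es4 fell as well (-2.61, -2.5 and -3.28), while EBE-1 and EBE-2 of the same list rose (1.99 and 2.72) and the sum over the 5 went from 118 to 190 CPM at 1 DAP to 636 to 1320 CPM. Their part in the falls was not tested. With a pseudocount of 5 only ae1 was called. The su2 call was lost without replicate 3 at 1 DAP (0.116), replicate 1 at 2 DAP (0.0842) or replicate 3 at 2 DAP (0.0753; range 7.63e-05 to 0.116).

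None of the 6 was called between 2 and 3 DAP (limma), in a comparison that called few genes at all, 2.63% of those tested (1.89% higher and 0.746% lower). At an unadjusted p below 0.05 there were 3, all with higher means at 3 DAP: su2 at 2.63 ± 1.21 CPM (1.38 ± 0.40, unadjusted p = 0.00284, adjusted p = 0.0817), su1 at 8.68 ± 3.63 CPM (0.71 ± 0.28, unadjusted p = 0.0221) and du1 at 36.9 ± 21.1 CPM (0.71 ± 0.31, unadjusted p = 0.0357). At that unadjusted threshold, 4199 of the 31783 genes tested passed in either direction. On the recovered reads, edgeR and DESeq2 each called 1 of the 6, su2 in both cases (adjusted p = 0.0253 and 0.000166; range over alternatives 0.000166 to 0.268). In 2 of the 6, su2 and du1, all libraries of 3 DAP lay above those of 2 DAP, as in 11.1% of all genes tested, but the high mean of du1 came from replicate 1, and without it the change was 0.29. Without that library su1 was called instead (1.07, adjusted p = 0.0470; range 0.0470 to 0.613).

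From 3 to 4 DAP, 3 of the 6 rose and 0 fell, where 1.67% of all genes tested rose, 0.818% fell and 2.49% changed in either direction. They were ae1, 3.59-fold, du1, 3.05-fold (1.65 ± 0.31, adjusted p = 0.00648), and su2, 3.69-fold (1.60 ± 0.40, adjusted p = 0.0407). The members' median change was 1.31, against -0.01 over all genes tested. For GBSSIIa the 4 DAP libraries also lay above those of 3 DAP, at 4.44 against 1.62 ± 0.609 CPM, though the change was not called (1.02 ± 0.34, adjusted p = 0.143). Neither su1 (0.44 ± 0.28, adjusted p = 0.578) nor wx1 (-0.17 ± 0.35, adjusted p = 0.937) was called. Markers of the transfer cells and the embryo-surrounding region rose in the same step, BETL1 by 5.93, MEG1 by 3.1, esr1 by 5.19, esr2 by 3.46 and ESR3 by 3.0, and the sum over the 7 endosperm markers was 93.8 to 113.6 CPM at 3 DAP against 178 to 422 CPM at 4 DAP. Of that list fie1 and Mrp1 were not called, and the part of these cells in the enzyme genes' rises was not tested. The rise of ae1 was called in all 16 alternatives, while su2 was called in 8 of them and lost when replicate 2 (0.220) or 3 (0.107) of 3 DAP or any one library of 4 DAP was left out (0.168, 0.151 and 0.0602; range 0.0119 to 0.220). The du1 call was lost without replicate 2 at 3 DAP (0.0612) and in a fit of the compared groups alone (0.128; range 0.000238 to 0.128), and its change was 2.08 without replicate 1 at 3 DAP. The 3 and 4 DAP endosperm shared 1 method of RNA quantification, which differed from that of the earlier stages and of the embryo.

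Against the trough at 2 DAP, the 4 DAP endosperm had risen in 5 of the 6 genes, all but wx1, where 9.5% of all genes tested rose, 8.56% fell and 18.1% changed in either direction. The rises were 27.9-fold for su2, 5.60-fold for du1 (2.37 ± 0.31, adjusted p = 5.13e-05), 5.11-fold for GBSSIIa, 2.82-fold for ae1 (1.42 ± 0.22, adjusted p = 0.000279) and 2.5-fold for su1. In each of the 5 genes, all 3 libraries of 4 DAP lay above all 3 of 2 DAP, as in 19.8% of all genes tested, and each call held in 16 of 16 alternatives. The median over the 6 was 1.48, against -0.01 over all genes tested. The wx1 level was 0.370 ± 0.220 CPM at 2 DAP against 0.456 ± 0.224 CPM in the 4 DAP endosperm (0.09 ± 0.35, adjusted p = 0.911). These stages also differed in how RNA was quantified, which cannot be told apart from the stage. The same 5 endosperm markers rose between 2 and 4 DAP (3.11 for MEG1 to 5.96 for BETL1) and Mrp1 fell (-1.82), and their part was not tested.

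Set directly against the central cell, the 4 DAP endosperm differed in 3 of the 6 genes, 1 higher and 2 lower, where 17.5% of all genes tested rose, 19.7% fell and 37.2% changed in either direction. Only du1 rose, and its call held in all 16 alternatives. RNA of 0 and 4 DAP was quantified by different methods, which cannot be told apart from the stage. GBSSIIa (-0.96 ± 0.34, adjusted p = 0.0350) and ae1 (-0.67 ± 0.22, adjusted p = 0.0260) were lower at 4 DAP, ae1 at 63.5% of its 0 DAP mean. The ae1 groups did not overlap, while the highest GBSSIIa library at 4 DAP exceeded the lowest at 0 DAP. The GBSSIIa call held in 7 of 16 alternatives and was lost when replicate 2 (0.0674) or 3 (0.160) of 0 DAP, or 1 (0.0791) or 3 (0.161) of 4 DAP, was left out (range 0.0195 to 0.161), and with edgeR (0.0761) and DESeq2 (0.0546). The ae1 call held in 11 and was lost when replicate 1 of 0 DAP (0.112), or 2 (0.0809) or 3 (0.137) of 4 DAP, was left out (range 0.00667 to 0.137).

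**Figure D2:**
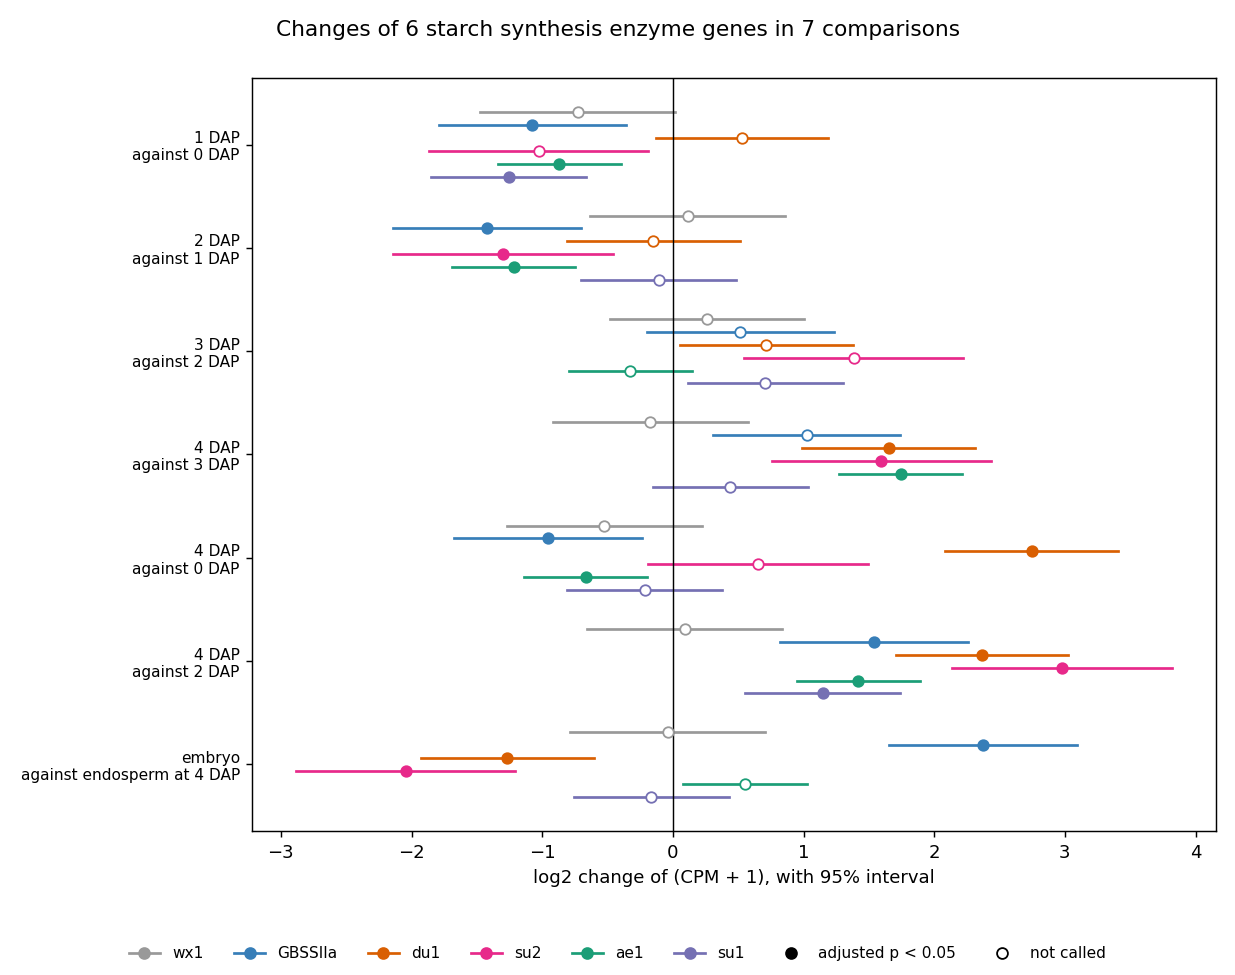
Log2 change of log2(CPM + 1) for the 6 genes in 7 comparisons, with 95% intervals from the fit; filled points were called at an adjusted p below 0.05. Called changes are all negative up to 2 DAP, all positive from 3 to 4 DAP and from 2 to 4 DAP, and of both signs between embryo and endosperm.

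At 4 DAP the embryo and the endosperm differed in 3 of the 6 genes, 1 higher and 2 lower in the embryo, all of them synthases. GBSSIIa was 6.10-fold higher in the embryo, at 27.1 ± 8.74 against 4.44 CPM (2.37 ± 0.34, adjusted p = 5.27e-05). Both soluble synthases were lower there, du1 2.53-fold, at 44.5 ± 7.27 against 112.4 CPM (-1.27 ± 0.31, adjusted p = 0.00656), and su2 5.00-fold, at 1.94 ± 1.85 against 9.69 CPM (-2.04 ± 0.40, adjusted p = 0.00104). The embryo level of su2 ran from 0.355 to 3.97 CPM, the lowest from 4 reads in the shallow replicate 1. In these 3 genes the groups did not overlap (over all genes tested, 19.2% lay wholly higher and 19.7% wholly lower in the embryo), and the 3 calls held in 16 of 16 alternatives. Of all genes tested 23.5% differed, 12.4% higher and 11.1% lower in the embryo. RNA of the embryo and of the 4 DAP endosperm was quantified by different methods, which cannot be told apart from the tissue. No difference was called for ae1, at 73.2 ± 6.0 against 50.9 CPM (0.55 ± 0.22, adjusted p = 0.0862), for wx1, at 0.592 against 0.456 CPM (-0.04 ± 0.35, adjusted p = 0.958), or for su1, at 10.3 ± 2.67 against 11.5 CPM (-0.16 ± 0.28, adjusted p = 0.733; 95% interval -0.76 to 0.43). Without replicate 1 of the 4 DAP endosperm, ae1 was called as higher in the embryo (0.0241, range 0.0073 to 0.328). The wx1 difference was called in 1 of 16 alternatives (adjusted p 0.0415 to 0.994), and 2 of the 3 embryo libraries held no wx1 reads.

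The markers of the embryo and the endosperm did not all separate these tissues. The embryo libraries lacked BETL1 and held 2.88 CPM of fie1, but of the embryo-surrounding-region genes, which are expressed in the endosperm next to the embryo, they held 350 CPM of esr1, 184 CPM of esr2 and 67.6 CPM of ESR3. The 4 DAP endosperm held 77.3, 42.6 and 11.3 CPM of them. Over the whole list of 7 endosperm genes the sum was 409 to 710 CPM in the embryo and 178 to 422 CPM in the 4 DAP endosperm. The part of these transcripts' source cells in the levels of the starch enzyme genes was not tested.

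Because the genes moved to different extents, the ratios between their levels changed. The transcript lengths were not available, so a ratio is read only for its change between groups. On the log2(CPM + 1) scale the difference du1 minus ae1 was -2.31 ± 0.244 at 0 DAP, -0.91 ± 0.0628 at 1 DAP, 0.15 ± 0.201 at 2 DAP, 1.19 ± 0.617 at 3 DAP and 1.1 ± 0.161 at 4 DAP (SD, n = 3). Its libraries did not overlap between 0, 1, 2 and 3 DAP and were higher at each of these steps, while the ranges of 3 and 4 DAP overlapped. These differences were not tested. In the embryo the difference was -0.72 ± 0.318, below every library from 2 DAP onwards.

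The difference du1 minus GBSSIIa went from 0.67 ± 0.573 at 0 DAP to 4.37 ± 0.521 in the 4 DAP endosperm and was 0.74 ± 0.698 in the embryo. In the embryo libraries it ran from 0.10 to 1.48, against 3.88 to 4.92 in the 4 DAP endosperm. The difference su2 minus ae1 was -3.58 ± 0.688, -3.74 ± 0.413 and -3.82 ± 0.0429 at 0, 1 and 2 DAP. It then stood at -2.11 ± 0.310 and -2.26 ± 0.165 at 3 and 4 DAP. No library of 0 to 2 DAP reached the range of 3 and 4 DAP, though this was not tested. In the embryo the difference was -4.85 ± 0.849. The 3 and 4 DAP endosperm also differed from the other groups in how RNA was quantified, which cannot be told apart from stage or tissue. The pseudocount hides change where su2 is low: the log2 ratio of the group mean CPM, without it, was -3.74, -4.15 and -5.70 at 0, 1 and 2 DAP, -2.43 and -2.39 at 3 and 4 DAP, and -5.24 in the embryo.

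The difference between the granule-bound synthases, wx1 minus GBSSIIa, was -2.29 ± 0.666, -1.94 ± 0.617, -0.41 ± 0.462, -0.66 ± 0.918 and -1.86 ± 0.482 at 0 to 4 DAP and -4.27 ± 0.813 in the embryo. Without the pseudocount, the log2 ratio of the group mean CPM was -3.14, -3.70, -1.23, -1.18, -3.28 and -5.52 in the same order. Where wx1 had no reads, as in 2 of the 3 embryo libraries, the difference follows GBSSIIa alone. The embryo ratio of means rests on the 20 wx1 reads of the shallow replicate 1. On the first scale the change was 1.54 from 1 to 2 DAP, -1.45 from 2 to 4 DAP and -2.41 from the 4 DAP endosperm to the embryo. In each of these 3 comparisons the groups did not overlap, and the two-sided exact permutation test gave p = 0.10, the smallest that 3 against 3 libraries allow, so none of the 7 comparisons made could pass the threshold. In the other 4, the same exact permutation test gave p = 0.2 to 0.8.

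**Figure D3:**
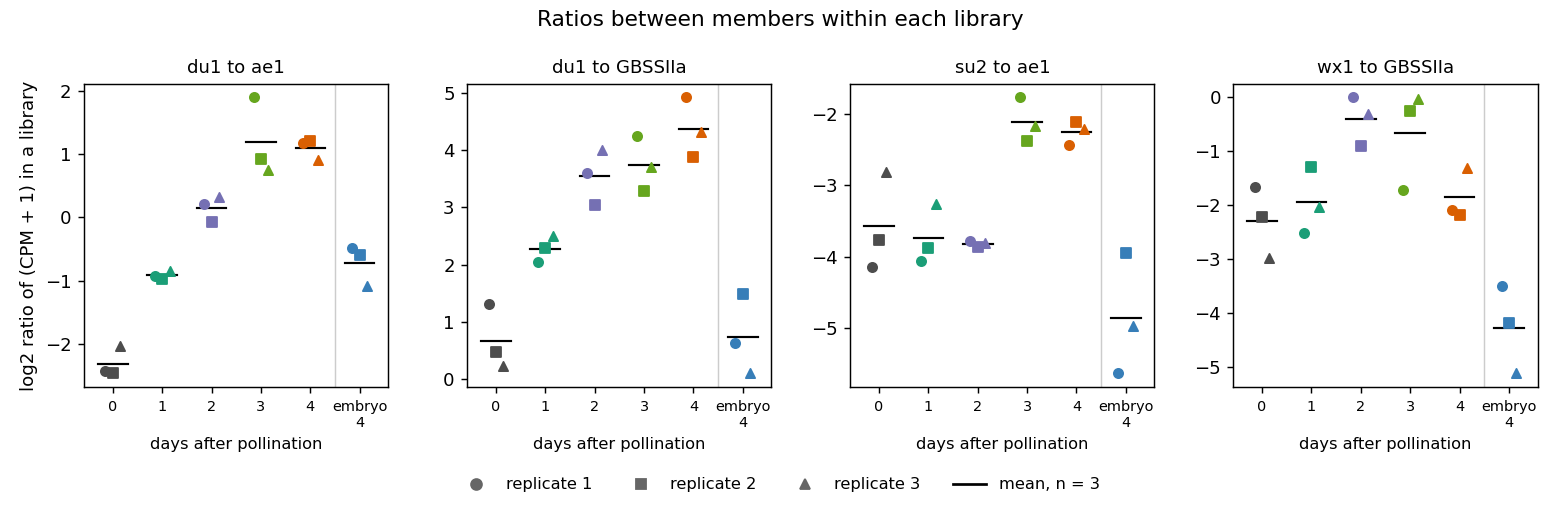
Differences between pairs of starch enzyme genes in log2(CPM + 1), by group; points are libraries and bars the means of 3. The difference du1 minus ae1 climbs from -2.31 at 0 DAP to 1.1 in the 4 DAP endosperm and is -0.72 in the embryo.

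Across the 18 libraries, GBSSIIa and ae1 were the most alike pair of the 6 (Pearson r = 0.824 of log2(CPM + 1)), and wx1 and du1 the least alike (-0.277). For du1 and ae1 the value was 0.135. These values describe libraries that share stages and are given with no test. Of all genes tested, the closest to ae1 was AGP2 (GRMZM2G027955; r = 0.967), annotated as a subunit of ADP-glucose pyrophosphorylase, the enzyme that makes the substrate of starch synthesis. Its means were 63.3, 11.2, 0.619, 0.791 and 28.1 CPM at 0 to 4 DAP and 42.9 CPM in the embryo, a trough at the same stages as that of ae1. Other named genes close to ae1 were gst37, a glutathione S-transferase (0.929), and pho1, a starch phosphorylase (0.917).

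GBSSIIa was most like isr (0.943), a4 (0.939) and gln2 (0.915) among genes with a name, and GRMZM5G864498 (0.948) among all. The genes nearest to du1 were sbp17, an SBP-box gene (0.908), CesA-3, a cellulose synthase (0.896), and P4H8-2 (0.879), with GRMZM2G702026 (0.919) highest of all. The gene su2 was nearest to pep7, a phosphoenolpyruvate carboxylase (0.897), sdh1, a sorbitol dehydrogenase (0.892), and Bk2L3, a brittle stalk-like gene (0.890), with GRMZM5G820693 (0.966) highest of all. For su1 the nearest were the calcium-dependent protein kinase models named CPK39, GRMZM2G157068 (0.821) and GRMZM2G053868 (0.814), and ibp2 (0.817), with GRMZM2G027049 (0.878) highest of all. The CPK39 models had nearly equal means in every group (7.87 and 7.85 CPM at 0 DAP) and may share reads. The values for wx1 were lower, VP8 (0.658), AMADH1A (0.640), an1 (0.635) and GRMZM5G863766 (0.762).

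A list of 18 other starch-pathway genes places the 6 among the remaining isoforms and the enzymes that feed them. The transporter bt1 was not analysed here. The F test over the stages called 17 of the 18, all but the branching enzyme gene sbe3, against 53.1% of all genes tested. All 18 passed the filter on low values.

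On the first day, 3 of the 7 other synthase, branching and debranching enzyme genes fell and 0 rose. In the whole list 9 of 18 fell and 0 rose, against the 12.6% of all genes that fell, with a median change of -0.97. The branching enzyme gene sbe1 (GRMZM2G088753) fell from 51.9 to 19.3 CPM (adjusted p = 0.00617), the isoamylase gene iso3 from 32.8 to 11.2 CPM (0.00493) and iso2, whose product is a partner of the su1 isoamylase, from 3.75 to 0.722 CPM (0.000613). No change was called for the synthase gene ss1 (adjusted p = 0.406), sbe3, zpu1 or the second sbe1 model. The calls of the 3 held in 16 of 16 alternatives. Of the other steps of the pathway, the beta-amylase gene BMY1 fell 8.33-fold, AGP2 (GRMZM2G027955) 5.66-fold and agpsl1, a further pyrophosphorylase subunit, 3.68-fold, again in 16 of 16.

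Between 1 and 2 DAP, 10 of the 18 fell and 1 rose, against 10.6% and 9.95% of all genes tested. The gene that rose was iso2, from 0.722 to 3.89 CPM (adjusted p = 0.00048), in a step in which su1 was level. The synthase gene ss1 fell from 9.76 to 4.31 CPM (0.0152), a call lost without replicate 1 at 1 DAP (0.0557) or at 2 DAP (0.0751; range 0.00436 to 0.0786), and iso3 fell from 11.2 to 3.65 CPM (0.00872), a call lost without replicate 2 at 2 DAP (0.0524; range 0.00137 to 0.064). AGP2 (GRMZM2G027955) fell 18.1-fold, the sucrose synthase gene sus1 13.2-fold and pho1 7.32-fold.

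Between 2 and 3 DAP, 1 gene of the list rose, against 1.89% of all genes tested, the pyrophosphorylase gene Agp2 (GRMZM2G106213), 3.60-fold, and 2 fell, sus1 9.29-fold and sh1, another sucrose synthase, 8.73-fold (0.746% of all genes fell). The Agp2 call was lost without replicate 1 at 2 DAP (0.0562) or at 3 DAP (0.0598; range 7.62e-05 to 0.0849).

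When ae1, du1 and su2 rose between 3 and 4 DAP, 5 of the 18 rose and 0 fell, against the 1.67% of all genes that rose. AGP2 (GRMZM2G027955) went from 0.791 to 28.1 CPM, 35.6-fold, and the sucrose synthase gene sus2 rose 9.52-fold, both called in 16 of 16 alternatives. The calls of pho1 (4.19-fold) and of ss1 (8.34 to 18.9 CPM, adjusted p = 0.0455) held in 8 and 5 of 16. The pho1 call was lost on leaving out replicate 2 or 3 of 3 DAP, or 1 or 2 of 4 DAP (adjusted p 0.0936 to 0.229), and the ss1 call without any one library of these stages (0.0535 to 0.267). Measured from the trough at 2 DAP, ss1 rose from 4.31 to 18.9 CPM (adjusted p = 0.000148), AGP2 45.5-fold, Agp2 9.39-fold and pho1 8.32-fold, each called in 16 of 16 alternatives, while sus1 and sh1 fell 9.44-fold and 5.75-fold. In that comparison 5 of the 18 rose (9.5% of all genes) and 2 fell (8.56%), and the median change was 0.25, against 5 of 6 and 1.48 for the enzymes described above.

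Between 0 and 4 DAP, 1 of the 18 rose and 10 fell, with a median of -1.05, where 17.5% of all genes tested rose and 19.7% fell. The branching enzyme model sbe1 (GRMZM2G088737), which may share reads with the other sbe1 model, fell from 4.02 to 1.18 CPM (adjusted p = 0.00308) and iso3 from 32.8 to 4.42 CPM (1.75e-05), both called in 16 of 16. The pullulanase gene zpu1 fell from 19.6 to 10.3 CPM (0.0253), a call lost on leaving out replicate 2 or 3 of 0 DAP, or 1 or 3 of 4 DAP (0.0623 to 0.0833; range 0.0111 to 0.0833). Further falls were those of sus1 (76.7-fold), BMY1 (70.9-fold) and sh1 (33.6-fold). The gene that rose was sus2 (2.70-fold), a call lost without replicate 3 at 0 DAP (0.0554) or replicate 1 (0.061) or 3 (0.079) at 4 DAP and by both count tests (range 0.0105 to 0.104).

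In the embryo, 6 of the 18 were higher than in the 4 DAP endosperm and 2 lower, with a median of 0.64, where 12.4% of all genes tested were higher and 11.1% lower. The lower share of the list, 2 of 18, was at that background. Of the isoforms, iso3 was higher, at 32.6 against 4.42 CPM (adjusted p = 3.07e-05), while sbe1 (GRMZM2G088753) was lower, at 20.0 against 49.6 CPM (0.00531), both called in 16 of 16. The synthase gene ss1 was lower like du1 and su2, at 10.5 against 18.9 CPM (0.0462), but this call held in 6 of 16 and was lost without any one library of the 4 DAP endosperm or replicate 2 or 3 of the embryo (0.0517 to 0.174; range 0.0144 to 0.174). The sucrose synthase genes sus1 and sh1 stood at 109 and 120 CPM against 0.870 and 1.32 CPM, 125.1-fold and 90.3-fold higher, and agpsl1 was 4.13-fold higher.

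**Figure D4:**
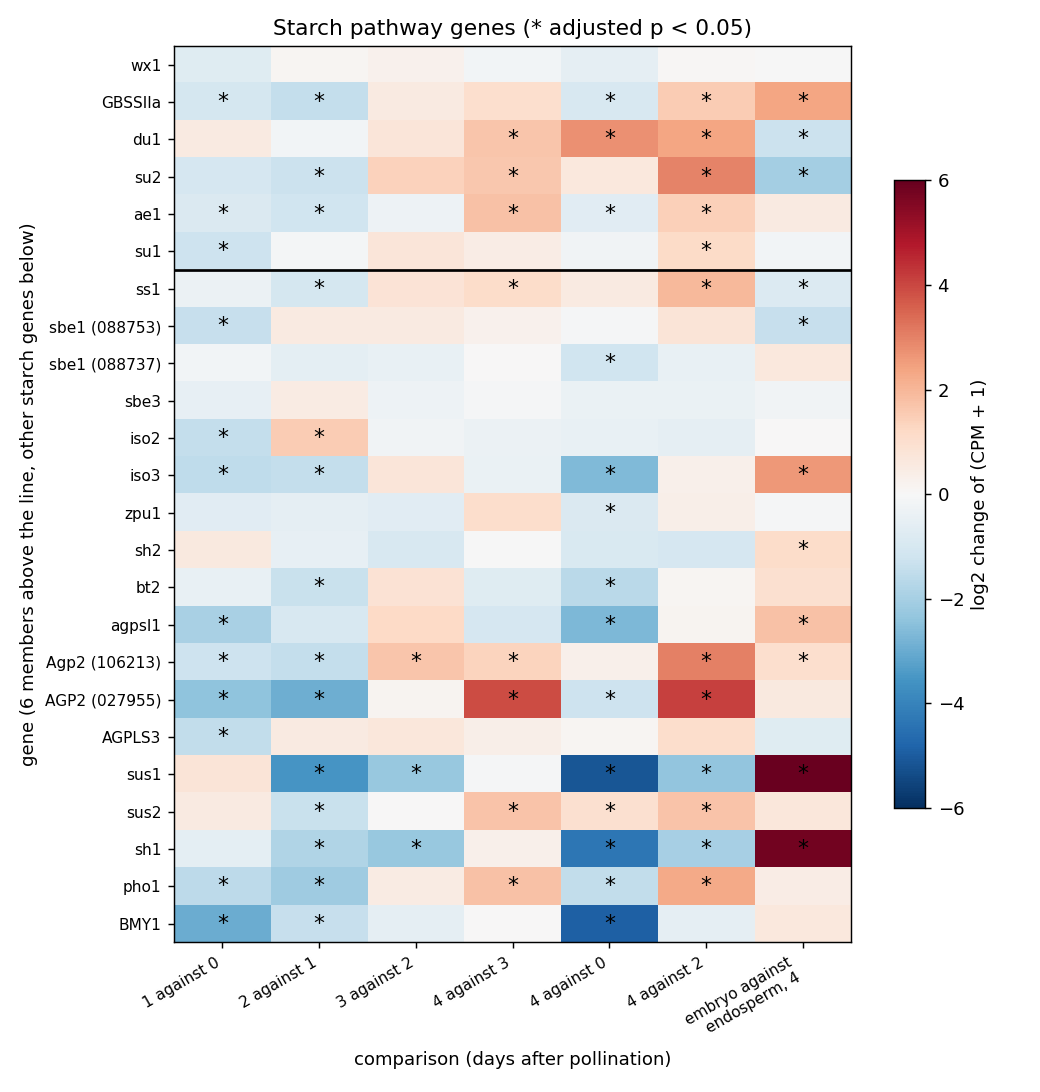
Colour gives the change in log2(CPM + 1) of the 6 starch enzyme genes and 18 other starch-pathway genes in rows, for each of 7 comparisons in columns, and a star marks an adjusted p below 0.05. AGP2 (GRMZM2G027955) and pho1 are negative to 2 DAP and positive from 3 to 4 DAP, and GBSSIIa, iso3, sus1 and sh1 are higher in the embryo.

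Some of the recovered counts came in steps. The counts of du1 were even in 18 of 18 libraries, those of su1 in 16 of 18, and those of GBSSIIa were multiples of 3 in 16 of 18. Of the 14 libraries with wx1 reads, 11 held an even count and 10 a multiple of 3. Of 37740 genes above 0 in 10 or more libraries, 0.623% had even counts in every library with reads, a criterion that du1 meets. Multiples of 3 in every such library occurred in 0.0318%. No share was computed for 16 of 18 libraries or for the wx1 counts. The counting method is not given in the sources used here, so a read pair may have been counted more than once in these genes, and their counting error is then larger than the counts imply. The limits taken from a count of 0 for wx1 would then be too low. The tests above use the spread between libraries.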

How the data were processed

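RNA-seq was made from laser-captured B73 tissue of 6 groups of 3 libraries. Per the labels' protocols, RNA was isolated with PicoPure columns, copied from random and oligo(dT) primers and amplified (Nugen Ovation v2) before paired-end sequencing. A carryover product led the submitters to quantify the RNA of 0 to 2 DAP and of the embryo from its 18S band, unlike that of the 3 and 4 DAP endosperm. The submitters' processing notes list TopHat2 2.0.9, Trimmomatic, edgeR, bedtools 2.17.0 and the build B73 RefGen_v3, with no role or order. For strandedness, the counting method and the treatment of shared reads, the sources used here give nothing, so reads of overlapping genes or close copies could be counted for a gene.

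The deposited table holds a normalised signal, in CPM, that the authors scaled between libraries: column totals run from 850346.3 to 1241737.6. In every library 100% of the values were whole multiples of 1 step within 0.001 reads, which gave back the counts. Amplified reads are not independent molecules, so limits from a count of 0 cover counting error only. Depth ranges from 7688120 to 124078873 reads.

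A minimum of 1 CPM in 3 or more libraries left 31783 of 38300 genes. Log2(CPM + 1) was fitted with 1 mean per group over all 18 libraries in limma 3.58.1 (R 4.3.3, trended variance), and p-values were adjusted by Benjamini-Hochberg within each comparison and called below 0.05. The pseudocount understates changes of low genes. Alternatives were pseudocounts of 0.25 and 5, no filter, libraries rescaled to equal totals, quantile normalization, the compared groups alone, a replicate block, leaving out libraries, and edgeR 4.0.16 (quasi-likelihood) and DESeq2 1.42.0 on the recovered reads. The steps were tested on simulated data.

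The members, the lists of pathway and marker genes and the tests were chosen with earlier results of these data known. Of the genes in the table, 14439 matched a reference entry of the assembly Zm-B73-REFERENCE-NAM-5.0 and 2017 a gene name. Its build differs, so no position or sequence was used. The pathway list holds the genes whose reference entry names a starch-pathway enzyme, 18 of 19 identifiers searched being in the table. The text names every member, the called isoforms of the members' families, up to 3 other called pathway genes with the largest change in each direction, and the 3 named genes most correlated with each member.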

Additional observations from a re-analysis of the deposited data

How the results depend on the processing

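Over the 7 comparisons and the F test, the 6 genes gave 822 values under alternatives: 756 kept their direction and side of the threshold, 38 lost a call, 14 gained 1 and 14 changed sign. Of 20 calls in the 7 comparisons, 13 held under every alternative, as did 33 of 54 among the other pathway genes. The cause of the shifts below was not tested.

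All sign changes were in changes that were not called. For wx1 the 2 against 1 DAP change was -0.16 without replicate 1 of every group and ran from -0.049 to 0.37 with 1 library left out. Its 4 against 3 DAP change then ran from -0.52 to 0.014, and its 4 against 2 DAP change from -0.039 to 0.22, with -0.018 under quantile normalization. In the embryo against the endosperm wx1 was 0.021 with a pseudocount of 5, 0.035 with edgeR and 0.40 with DESeq2, and ran from -0.53 to 0.21 with 1 library left out. For su1 the 2 against 1 DAP change was 0.0080 under quantile normalization, and the embryo difference ran from -0.30 to 0.043 with 1 library left out. The wx1 to GBSSIIa difference was -0.34 for 1 against 0 DAP with a pseudocount of 0.25.

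The number of the 6 called was 1 for 2 against 1 DAP with a pseudocount of 5, for 4 against 3 DAP in the compared groups alone and for 4 against 0 DAP after rescaling, and 5 in the embryo without replicate 1 of every group. For 3 against 2 DAP it was 1 with a pseudocount of 0.25, the replicate block, edgeR, DESeq2 or without replicate 1 of every group. Of the other pathway genes, the compared groups alone called 7 for 2 against 1 DAP and 2 for 4 against 3 DAP. In the latter edgeR called 2, and quantile normalization and the omission of replicate 1 called 3 each. For 3 against 2 DAP a pseudocount of 5 and the omission of replicate 1 called 1 each, and in the embryo edgeR called 5. Neighbouring levels differed in 10 steps without replicate 1 of every group.

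Leaving out 1 library at a time, members called ranged from 2 to 3 (1 against 0 DAP), 2 to 3 (2 against 1), 0 to 1 (3 against 2), 1 to 3 (4 against 3), 1 to 2 (4 against 0), 5 to 5 (4 against 2), 3 to 4 (embryo) and 5 to 5 (F test). Other pathway genes ranged, in that order of comparisons, from 6 to 9, 8 to 11, 2 to 3, 2 to 4, 8 to 11, 7 to 8 and 5 to 7, and steps between neighbours from 3 to 7. The wx1 to GBSSIIa difference ranged from -0.00095 to 0.66, 1.25 to 1.86, -0.57 to 0.27, -1.72 to -0.88, 0.085 to 0.75, -1.73 to -1.25 and -2.80 to -1.99.

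With the replicate number as a block, 3, 3, 1, 3, 3, 5 and 4 members were called in that order and 5 by the F test. The calls it added were su2 for 3 against 2 DAP (adjusted p = 0.0387) and ae1 in the embryo (0.0426; limma). Same-numbered libraries deviated together with r of 0.056 to 0.696, over 0.1 in 44 of 45 pairs, and 16 of 18 libraries correlated best with their own number, a hint from the data and not from the labels. Rescaling to equal totals moved the median of all genes from 0.00 to -0.24 for 2 against 1 DAP, and to 0.15, 0.13 and 0.23 for 4 DAP against 3, 0 and 2 DAP. No library held more than 96 reads of wx1.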
